A study of Mus musculus with 6 samples.

Results

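The genes described here are 10 that mark or serve endothelial cells, the cells that line blood vessels: the receptors Flt1, Kdr, Tek, Tie1, Eng and Gpr182, the junction and adhesion proteins Pecam1, Cdh5 and Cldn5, and the glucose transporter Slc2a1. They were chosen by name, and every linked probe paired with one of these symbols was taken. A linked probe was found for 9 of the 10 genes, 10 probes in all because Gpr182 had 2, out of 13827 probes tested. Kdr, the main signalling receptor for vascular endothelial growth factor, had no linked probe and was not measured here, and a second Flt1 probe was not linked either.

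RNA came from whole optic nerve, the bundle of retinal ganglion cell axons with its glia, vessels and sheath. The mice lacked leukemia inhibitory factor (LIF-/- on a CD1 background, called LIF knockout) or were CD1 wild type, and were taken at postnatal days 10, 14 and 35. All were labelled male, with no treatment. Each of the 6 groups, 1 genotype at 1 age, was 1 pool of nerves on 1 array: 10 nerves at day 10, 8 at day 14 and 4 at day 35, which the labels call adult. A single-age difference between the genotypes is therefore 1 array against 1 array, with no replicate and no test. Fewer endothelial cells and less RNA per endothelial cell cannot be told apart in whole-nerve RNA.

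Vessels grow into nervous tissue under vascular endothelial growth factor, which acts through Kdr and is held back by Flt1, and are then stabilised by angiopoietins, which act through Tek with Tie1 as its partner. As they mature, endothelial cells of the central nervous system build a blood-brain barrier: tight junctions made with claudin 5 (Cldn5) on top of adherens junctions made with VE-cadherin (Cdh5), and transporters such as GLUT1 (Slc2a1) that carry glucose into the tissue. LIF is a cytokine of the interleukin-6 family, which astrocytes can release, that signals through gp130 and STAT3.

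Between 12222 and 13292 probes were detected per array, and median raw signals were 51.8 to 61.9. Day 10 and day 14 RNA was read on the same slide and day 35 RNA on a second one, so genotypes were compared within a slide, while age and slide cannot be told apart in any change up to day 35. The Lif probe read close to background in both genotypes (detection p 0.005 to 0.029), which leaves the genotype labels unchecked by it. The array of the day 35 knockout pool went against the label male. Both Y-linked genes with a probe were at background on the day 35 knockout array (Kdm5d 37.5, Eif2s3y 39.5 raw units), against 141.0 and 72.3 in wild type of that age. At day 10 these genes disagreed: Eif2s3y read 396.4 in the knockout and 55.4, a background level, in wild type, while Kdm5d was detected in both, at 73.8 and 97.2. Results over ages are therefore also given without each age. Of the 9 measured genes, 8 were detected on all 6 arrays and Tie1 on 4, the exceptions being both day 35 arrays (detection p 0.0523 in the knockout and 0.3917 in wild type).

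The age series gave the single endothelial gene that passed the test. Slc2a1, encoding the glucose transporter of barrier vessels and also of astrocytes, read 922.5 in LIF knockout and 623.4 in wild type on day 10, 710.6 and 994.7 on day 14, and 2404.6 and 1456.8 on day 35, in raw signal units. On the normalized log2 scale these were 9.54 and 9.15 on day 10, 9.62 and 9.83 on day 14, and 11.28 and 10.58 on day 35. Both day 35 arrays stood above all 4 earlier arrays. Slc2a1 rose by 1.58 ± 0.25 on the log2 scale (SE, 2 arrays per age) at day 35 against day 10, about 3-fold, with an adjusted p of 0.0176 (limma, Benjamini-Hochberg over all probes), and by 1.21 ± 0.25 against day 14 with an adjusted p of 0.0351. It was 1.74 higher at day 35 than at day 10 in the knockout and 1.43 higher in wild type. With 1 of 9 endothelial genes past the threshold at day 35 against day 10, the share was below the background, since 20.8% of all tested probes passed. That count hangs on the threshold: Cdh5, Cldn5, Tie1 and Eng narrowly missed it (limma, adjusted p 0.0526 to 0.0578). At an unadjusted p under 0.05 the fit had 6 of 9 endothelial genes, against 38.5% of all probes. At day 35 against day 14, where 14.9% of probes passed (7.74% higher), Slc2a1 was again the 1 of 9. The count at day 35 against day 10 was 5 of 9 with no normalization between arrays (Cdh5, Cldn5, Eng and Tie1 added, all lower), where the split of all calls was 755 higher and 1903 lower against 1468 and 1407 here. The Slc2a1 call against day 14 was lost in that setting (adjusted p 0.0648 in limma), with no filter on dim probes (0.0805) and without day 10 (0.073). The earlier step, day 14 against day 10, had 0 of 9 endothelial genes and 0 of 13827 probes past the threshold (0%), with 1719 probes (12.4%) at an unadjusted p under 0.05.

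**Figure D1:**
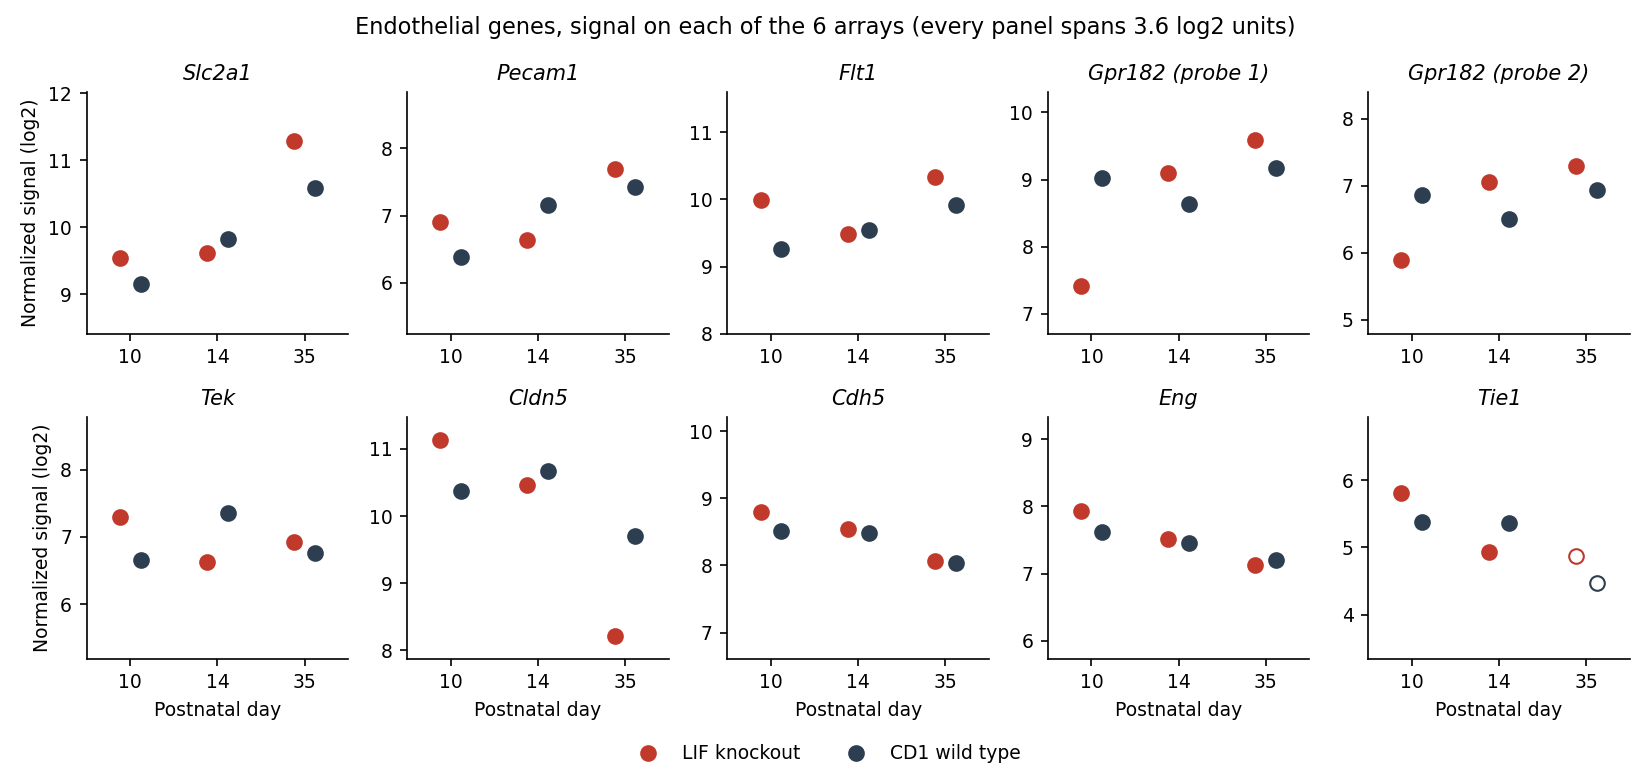
Normalized log2 signal of each probe on the 6 arrays, by postnatal day, with 1 panel per probe (10 probes of 9 genes) and a vertical axis that spans the same number of log2 units in every panel. Each point is 1 array (1 pool of nerves), so there are no error bars, and open circles mark arrays where the probe was not detected, which are the Tie1 arrays of day 35. The Slc2a1 points of day 35 (11.28 in the knockout and 10.58 in wild type) lie above all earlier ones, and the Cldn5 points of day 35 (8.21 and 9.70) lie below them.

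The other endothelial genes did not move as one with age. Arrays of the 2 ages did not overlap, with day 35 above day 10, for 3 of 9 genes (Gpr182, Pecam1 and Slc2a1), and with day 35 below day 10 for 4 of 9 (Tie1, Eng, Cdh5 and Cldn5). Over all probes these patterns took 30.7% and 35.5%, so neither count stands far from the background. For Flt1 and Tek the 2 ages overlapped. At day 35 against day 14, 4 of 9 lay above (Flt1, Gpr182, Pecam1 and Slc2a1, with 32.1% of all probes) and 4 of 9 below (Tie1, Eng, Cdh5 and Cldn5, with 37.3%). The dimmer second Gpr182 probe overlapped between days 35 and 14. At day 14 against day 10 only Slc2a1 lay above (22.2% of all probes) and Tie1 and Eng below (22.5%), by their brightest probe.

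Cldn5, the main claudin of barrier tight junctions, had log2 signals of 11.14 in LIF knockout and 10.38 in wild type on day 10, 10.46 and 10.67 on day 14, and 8.21 and 9.70 on day 35. In raw units the day 35 arrays read 300.5 in the knockout and 797.0 in wild type; these were the lowest of the 6 arrays. The difference of day 35 minus day 10 was -1.81 ± 0.50 (SE, limma, adjusted p 0.054), which missed the threshold, and it was -2.93 within the knockout and -0.69 within wild type. Cdh5, the adherens junction cadherin of endothelium, had 8.79 and 8.51 on day 10, 8.54 and 8.49 on day 14, and 8.06 and 8.03 on day 35, knockout before wild type at each age. Its difference of day 35 minus day 10 was -0.61 ± 0.16 (SE, limma, adjusted p 0.0526). The 2 genotypes lay within 0.05 of each other at days 14 and 35, the closest agreement of any measured endothelial gene at these ages together.

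Pecam1, the adhesion molecule CD31 that platelets and leukocytes carry as well as endothelium, ran the other way. Its log2 signals were 6.90 in LIF knockout and 6.39 in wild type on day 10, 6.64 and 7.15 on day 14, and 7.69 and 7.42 on day 35. Both day 35 arrays were the highest, and day 35 minus day 10 was 0.91 ± 0.27 (SE, limma, adjusted p 0.0657), short of the threshold. Pecam1 and the junction genes Cdh5 and Cldn5 therefore had age differences of opposite sign, none of which passed.

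Among the receptors, Eng, a co-receptor for transforming growth factor beta ligands, had 7.93 in LIF knockout and 7.62 in wild type on day 10, 7.52 and 7.46 on day 14, and 7.13 and 7.20 on day 35. Its arrays stepped down at each age without overlap, and day 35 minus day 10 was -0.61 ± 0.17 (SE, limma, adjusted p 0.0578). Tie1, the orphan partner of Tek, had 5.81 and 5.38 at day 10, 4.93 and 5.36 at day 14, knockout first, and was not above background on either day 35 array. Set against the dimmest signal counted as detected on those arrays, its day 10 mean was at least 1.66-fold higher than at day 35, and the fit gave -0.93 ± 0.26 (SE, limma, adjusted p 0.0548). Flt1, the high-affinity receptor that limits the growth factor reaching Kdr, had 9.99 and 9.26 on day 10, 9.49 and 9.54 on day 14, and 10.34 and 9.91 on day 35. Flt1 differed by 0.50 ± 0.23 between days 35 and 10 (SE, limma, adjusted p 0.166). Tek, the angiopoietin receptor, had 7.29 and 6.65 on day 10, 6.62 and 7.35 on day 14, and 6.92 and 6.76 on day 35, with ages that overlapped throughout and a difference of -0.13 ± 0.33 between days 35 and 10 (SE, limma, adjusted p 0.795).

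**Figure D2:**
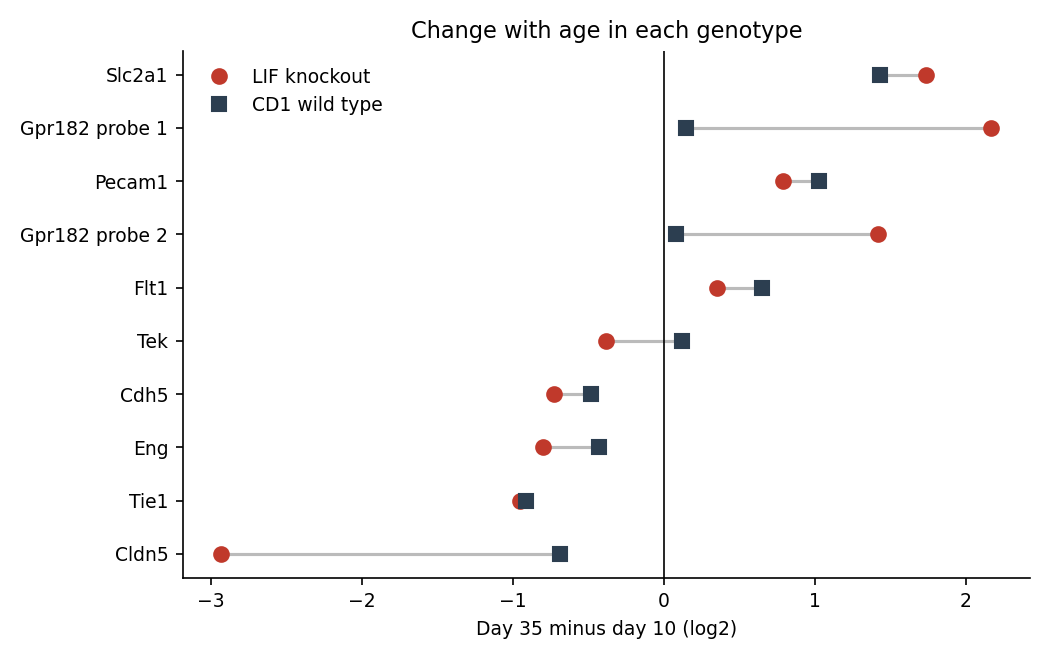
Log2 change of each probe at day 35 against day 10, with circles for LIF knockout and squares for wild type (1 array per age and genotype behind each point). Slc2a1 (1.74 in the knockout and 1.43 in wild type) and Pecam1 (0.79 and 1.03) lie to the positive side in both genotypes, Cldn5 (-2.93 and -0.69), Tie1, Eng and Cdh5 to the negative side in both, and the genotypes lie farthest apart for Cldn5 and the first Gpr182 probe (2.17 and 0.15).

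Promoter windows are shown for Eng and Tie1, whose arrays lay lower at day 35 than at day 10, for Slc2a1, which rose, and for Cldn5, which had the widest age difference of the 9. They are RefSeq sequence on GRCm38.p6, 250 bases before to 50 after the annotated start, written 5′ to 3′ on the strand of the gene: Eng at chr2:32646345-32646644 on the plus strand, Tie1 at chr4:118489800-118490099 on the minus strand, Cldn5 at chr16:18776597-18776896 on the plus strand and Slc2a1 at chr4:119108495-119108794 on the plus strand. Capitals mark matches to the motif CAGGAA, an ETS-factor core that endothelial genes often carry, which here lie on the opposite strand and so read TTCCTG.
Eng: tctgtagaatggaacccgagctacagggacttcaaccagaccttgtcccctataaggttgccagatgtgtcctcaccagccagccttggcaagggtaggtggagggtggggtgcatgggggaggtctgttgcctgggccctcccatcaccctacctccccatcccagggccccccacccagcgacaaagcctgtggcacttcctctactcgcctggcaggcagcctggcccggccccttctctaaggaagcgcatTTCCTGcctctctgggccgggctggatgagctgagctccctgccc
Tie1: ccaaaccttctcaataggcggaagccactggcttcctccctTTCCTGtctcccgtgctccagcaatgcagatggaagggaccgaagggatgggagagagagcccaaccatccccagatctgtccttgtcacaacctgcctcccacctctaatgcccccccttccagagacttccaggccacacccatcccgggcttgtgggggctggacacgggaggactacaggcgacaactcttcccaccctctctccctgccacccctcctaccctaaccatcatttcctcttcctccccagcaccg
Cldn5: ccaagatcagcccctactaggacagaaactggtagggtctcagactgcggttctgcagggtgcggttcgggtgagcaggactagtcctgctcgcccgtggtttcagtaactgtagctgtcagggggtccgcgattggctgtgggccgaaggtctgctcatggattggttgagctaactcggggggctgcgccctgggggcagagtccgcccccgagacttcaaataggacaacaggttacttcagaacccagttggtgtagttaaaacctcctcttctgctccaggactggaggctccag
Slc2a1: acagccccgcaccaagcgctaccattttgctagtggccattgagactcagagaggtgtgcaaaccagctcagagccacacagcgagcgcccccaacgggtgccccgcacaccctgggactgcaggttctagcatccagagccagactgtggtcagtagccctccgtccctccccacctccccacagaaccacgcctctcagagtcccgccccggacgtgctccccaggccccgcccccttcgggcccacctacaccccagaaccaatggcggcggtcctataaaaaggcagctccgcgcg
The motifs searched were CAGGAA and CCGGAA on both strands, and no match of one overlapped a match of the other in these windows. Of the 7 genes of the 10 with a window, 4 held at least 1 of the motifs, as did 41.4% of 32851 RefSeq promoter windows of this length. CAGGAA alone was in 30.6% of all windows and CCGGAA in 14.9%. Kdr held CCGGAA, Tek held CAGGAA at 2 places, Tie1 and Eng held CAGGAA once each, and Flt1, Cldn5 and Slc2a1 held neither in these letters. A match is a string of letters in the window and does not show that a factor binds there.

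Gpr182, an atypical chemokine receptor found on lymphatic and sinusoidal endothelium, was read by 2 probes with the same sign of genotype difference at each age. The first had log2 signals of 7.42 in LIF knockout and 9.03 in wild type on day 10, 9.10 and 8.63 on day 14, and 9.59 and 9.18 on day 35. The second had 5.89 and 6.86 on day 10, 7.05 and 6.51 on day 14, and 7.30 and 6.94 on day 35. On both probes the day 10 knockout array was the lowest of the 6. In raw units the first probe read 230.2 on that array, against 574.9 in wild type of the same age, and the second read 96.7 against 148.4. The first probe was 3.06-fold lower in the knockout at day 10 (difference -1.61 log2), and 0.419% of all probes had a difference at least that far below 0. At days 14 and 35 the same probe was higher in the knockout by 0.46 and 0.41, and the second probe by 0.54 and 0.37 after -0.97 at day 10. This order of signs was found for 9.92% of all probes. The day 10 difference against the common difference of the other ages was -2.05 ± 0.27 for the first probe and -1.43 ± 0.28 for the second (SE, limma, adjusted p 0.886 for each). Before adjustment, limma's p-value across the table for the first probe was 0.00136. This comparison called 0 of 13827 probes (0%), while 734 (5.31%) had an unadjusted p under 0.05. Of the 6 measured lymphatic markers, 4 were below 0 at day 10 with a list median of -0.05: Ccl21b was at -2.98, Prox1 at -0.44, Pdpn at -0.07 and Stab1 at -0.04, while Lyve1 was at 0.30 and Reln at 0.67. The summed raw signal of the 6 was 4157.2 in the knockout and 3752.9 in wild type at day 10. Myelin markers had a lower median at day 10, -1.06 (10 of 12 below 0), and medians of 0.00 and -0.04 at days 14 and 35. The part of lymphatic or myelin RNA in the Gpr182 result was not tested.

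Between the genotypes, the number of genes that were higher in the knockout differed from age to age. At day 10, 8 of 9 genes were higher in LIF knockout than in wild type, against 49% of all probes, with a median difference of 0.43 log2 against -0.01 over all probes. The exception was Gpr182. At day 14, 3 of 9 were higher in the knockout (Eng, Gpr182 and Cdh5), against 50.5% of probes, with a median of -0.22 against 0.00. With no normalization between arrays, or a median shift only, 1 of 9 was higher at day 14, and 3 of 9 stood above the median of all probes, which was -0.21 and -0.05 in these settings. At day 35, 7 of 9 were higher, against 47.3% of probes, and 6 of the 8 without Tie1, which was at background there. The median at day 35 was 0.27 with Tie1 and 0.21 without it, against -0.02 over all probes. These are counts from 1 pair of arrays per age, over genes of 1 cell type that share an array, and they carry no test.

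**Figure D3:**
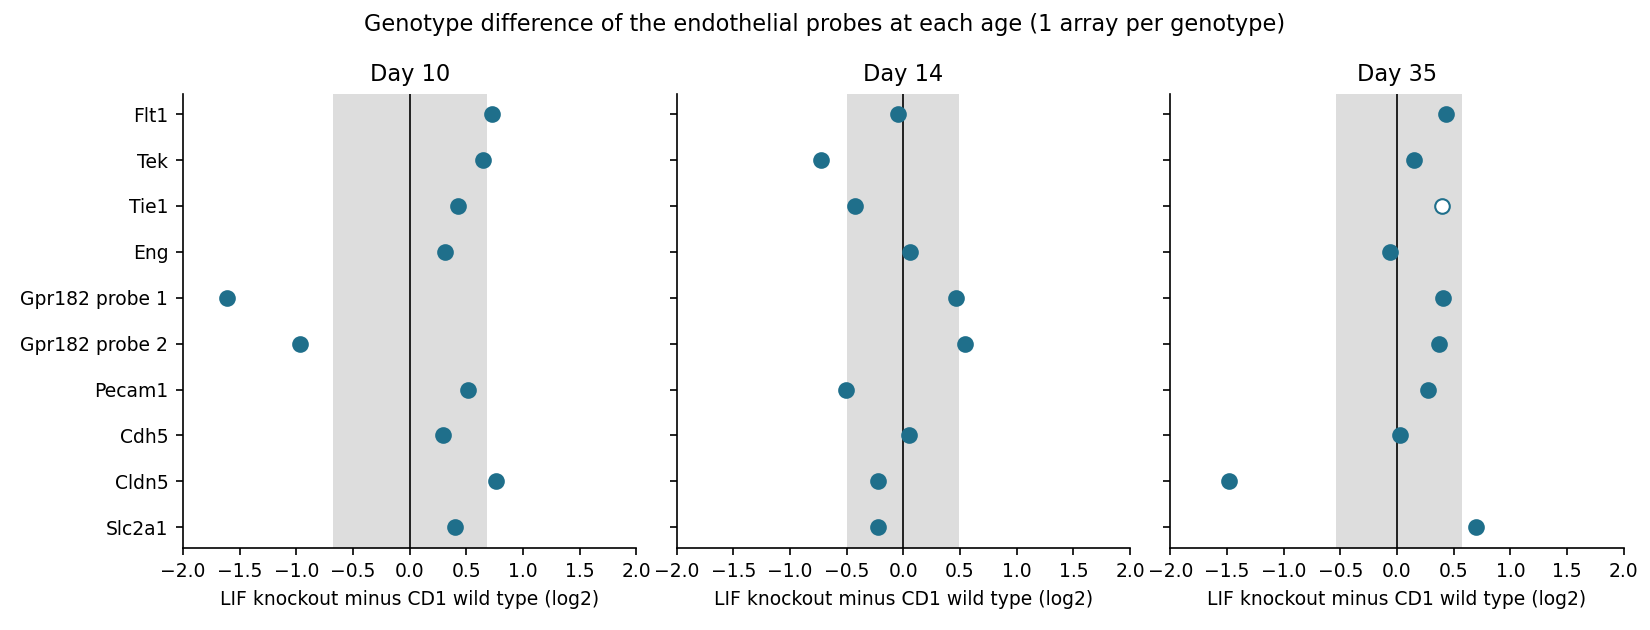
Difference between LIF knockout and wild type (log2) of each probe at days 10, 14 and 35, each from 1 pair of arrays, with a grey band from the 5th to the 95th percentile of all 13827 probes at that age (-0.68 to 0.68 at day 10) and open symbols where the probe was at background on both arrays. At day 10 the points lie above 0 except both Gpr182 probes, at day 14 most lie below 0, and at day 35 Cldn5 (-1.48) lies far below the band.

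Of the receptors, Flt1 was higher in the knockout by 0.73 at day 10 and 0.43 at day 35 and differed by -0.05 at day 14, while Tek differed by 0.65, -0.73 and 0.15 at days 10, 14 and 35. Tie1 differed by 0.43 at day 10 and -0.43 at day 14. Pecam1 repeated this with 0.51, -0.51 and 0.27, and Slc2a1 with 0.40, -0.22 and 0.70. This order of signs, above 0 at days 10 and 35 and below 0 at day 14, was found for 5 of 9 genes (Flt1, Tek, Tie1, Pecam1 and Slc2a1), Tie1 being at background at day 35. It was found for 13.3% of all probes. For Tek, Pecam1 and Tie1 the day 14 difference set against the common difference of days 10 and 35 was -1.13 ± 0.36, -0.90 ± 0.31 and -0.85 ± 0.30 (SE, limma, adjusted p 0.929 for each). For Slc2a1 it was -0.76 ± 0.32 (adjusted p 0.931). The 3 unadjusted p-values under 0.05 among 9 genes compare with 5.24% of all probes, and 0 of 13827 probes (0%) passed after adjustment. This day 14 term was written with the earlier endothelial medians at each age known, so that share gives no independent support. Tie1, 1 of the 3, also enters with day 35 values at background.

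Eng and Cdh5 were close between the genotypes after day 10. Eng differed by 0.31 at day 10, 0.06 at day 14 (-0.18 with no normalization between arrays, where the median of all probes was -0.21) and -0.06 at day 35, and Cdh5 by 0.29, 0.05 and 0.03. Cdh5 was the 1 gene of 9 that was higher in the knockout at all 3 ages, as were 11.4% of all probes, and with no normalization between arrays its day 14 difference was -0.17 against a median of -0.21 over all probes. Its later differences were small beside the middle 90% of probes (-0.50 to 0.49 at day 14).

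Cldn5 departed from its junction partner. It was higher in the knockout by 0.76 at day 10, differed by -0.22 at day 14, and was 2.8-fold lower in the knockout at day 35 (difference -1.48 log2). Only 0.34% of all probes had a day 35 difference at least that far below 0. Its raw signals there were 300.5 in the knockout and 797.0 in wild type, while Cdh5 read 274.9 and 266.1. The day 35 knockout array also read high for skeletal muscle: the 13 measured muscle markers summed to 10207.9 raw units in the knockout and 996.1 in wild type at day 35, with a median difference of 2.92. Its blood markers had a median difference of -0.77 (1 of 7 above 0) and its microglial markers -0.62 (1 of 12 above 0). Mural markers, of the cells that wrap small vessels, had a median of 0.13 and ran from 1.66 (Acta2) to -0.67 (Abcc9). The Y-linked genes Kdm5d and Eif2s3y were at background on the day 35 knockout array, against its label male, but detected in wild type. The part of other cells or of sex in the Cldn5 difference was not tested. The same array had the highest Slc2a1 (11.28) and Pecam1 (7.69) signals of the 6.

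Pooled over the 3 ages, no endothelial gene separated the genotypes. The largest average differences were 0.37 ± 0.18 for Flt1, -0.32 ± 0.40 for Cldn5 and 0.29 ± 0.20 for Slc2a1 (SE, limma, 3 arrays per genotype, adjusted p 0.989 for Flt1). The fit called 0 of 9 endothelial genes and 0 of 13827 probes (0%). At an unadjusted p under 0.05 it had 0 of 9 endothelial genes and 520 probes (3.76%). Without day 10 the average of Tek became -0.29 and that of Pecam1 -0.12, and without day 35 that of Cldn5 became 0.27, all uncalled.

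A wider list of vessel genes put the 9 beside their pathways. It held 148 genes besides the 10, of which 106 were measured. At day 10, 87 of 106 (82.1%) were higher in LIF knockout, against 49% of all probes, with a median of 0.31. At day 14, 37 (34.9%) were higher, against 50.5%, with a median of -0.20. At day 35, 63 (59.4%) were higher, against 47.3%, with a median of 0.07. The sign order of the 5 genes above was found for 38 of 106 (35.8%), against 13.3% of all probes. That order was taken from the 9 genes on these same arrays, so the wider list is no independent check of it. The list itself was chosen with earlier results of these data known, so its shares above 0 are a description only. The difference over ages called 0 of the 106.

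**Figure D4:**
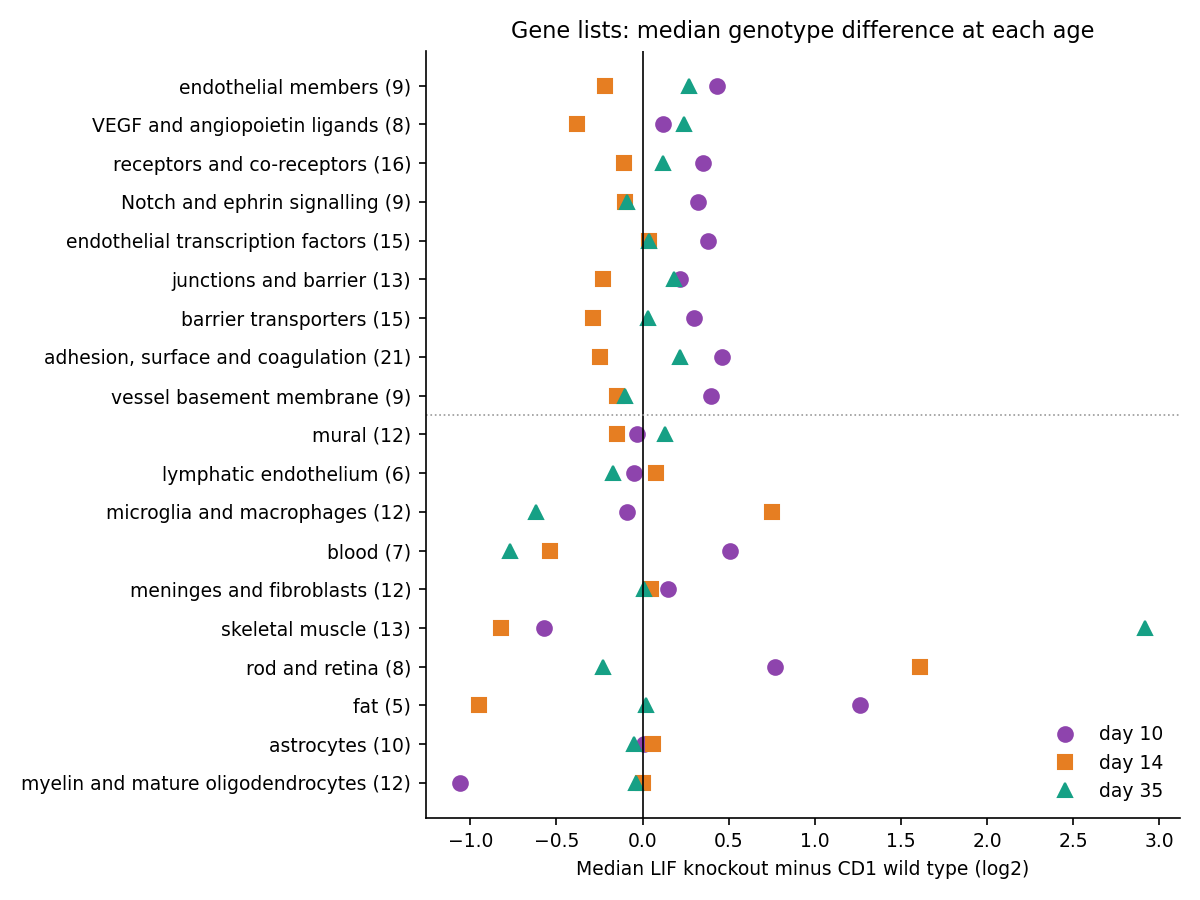
Median difference between LIF knockout and wild type (log2) of each gene list at days 10, 14 and 35, with vessel role groups above the dotted line and markers of other cells below it, 1 pair of arrays per age and no error bars. Each vessel group has a positive median at day 10, from 0.12 to 0.46, while skeletal muscle at day 35 (2.92), fat at day 10 (1.26) and rod markers at day 14 (1.61) show the widest shifts.

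At day 10 the 9 basement membrane genes encode collagens, laminins and other matrix proteins of the sheet under endothelium. They were higher in the knockout in 9 of 9 cases (49% of all probes), with a median of 0.40. Sparc was at 2.79 and Col4a2 at 0.89, while Lama4 and Nid1 were at 0.07 each. Wild-type Sparc read 614.1 raw units at day 10, against 3307.9 and 1774.8 at days 14 and 35, where its difference was -0.67 and -0.56. Adhesion, surface and coagulation genes had a median of 0.46 over 21 genes, with Esm1, a product of sprouting tip cells, at 1.18, and Mcam at -0.77. The 16 other receptors had a median of 0.35, with Robo4 at 1.06, Cd93 at 0.95 and the netrin receptor Unc5b at -1.56. The ligands had a smaller median of 0.12 over 8 genes: Vegfa was at 1.18 and Angpt2, the angiopoietin that loosens vessels, at 0.98, while Angpt1, which steadies them, was at -0.47. Angpt1 was dim at this age, with 59.3 raw units in the knockout and 70.8 in wild type, so its difference is uncertain. Angpt2 read 702.8 and 323.5. Beside these, fat markers summed to 4389.7 raw units in the knockout and 1055.4 in wild type at day 10, with 5 of 5 above 0 and Ucp1 of brown fat at 4.90. Against 49% of all probes, blood markers were above 0 in 7 of 7 cases (median 0.51), Ppbp among them at background. Cell cycle genes were above 0 in 12 of 14 (median 0.43). Mural markers split 6 to 6 (median -0.03) and astrocyte markers 5 to 5 (median 0.01). Within the mural list, the smooth muscle genes Myh11 and Acta2 were at 1.19 and 0.85, while Notch3 and Mcam were at -0.84 and -0.77. At days 14 and 35 Myh11 was at -1.39 and 0.96, and Acta2 at -2.53 (background in the knockout) and 1.66. Both thus had the sign order of the 5 endothelial genes above, which Notch3 and Mcam did not. Rod markers were above 0 in 7 of 8 cases (median 0.77), but Gnat1, Nrl, Pde6g, Crx and Prph2 were at background in at least 1 genotype. Meningeal and fibroblast markers had a median of 0.15, with 7 above 0 and 4 below. Fbln2 was at 1.41, Col3a1 at 1.04 and Col1a2 at 0.79, while Aldh1a2 was at -1.12, Serping1 at -0.89 and Slc22a6 at -0.73. Myelin markers had a median of -1.06. Whether RNA of fat, blood, retina, sheath, smooth muscle or dividing cells takes part in the vessel values at day 10 was not tested.

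At day 14 Angpt2 stood at -0.98 and Esm1 at -1.12, so both had the sign opposite to day 10. Adhesion and surface genes had a median of -0.25 and the ligands -0.38, while endothelial transcription factors stood at 0.04. Fat markers were below 0 in 5 of 5 cases at this age (Ucp1 and Adipoq at background in at least 1 genotype) and blood markers in 5 of 7. Over all probes 50.5% were above 0. Skeletal muscle markers were below 0 in 12 of 13 (median -0.82) and mural markers in 9 of 12 (median -0.15). The muscle markers Ckm, Tnni1, Mb and Myl1 were at background on both day 14 arrays, so their signs are uncertain. Rod markers were above 0 in 8 of 8 cases (median 1.61) and microglial markers in 11 of 12 (median 0.75). Of the rod markers, Nrl, Pde6g, Crx and Prph2 were at background in at least 1 genotype. At day 35 the organic anion transporter Slco1a4 of barrier vessels was higher in the knockout by 1.94 and the transcription factor Sox17 by 1.27, while Hhex was at -1.30 and Efna1 at -0.93. None of these single-age values has a replicate, and the part of the other cells was not tested.

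With age the wider list had calls in both directions. At day 35 against day 10, 9 of 106 genes rose (8.49%, against 10.6% of all probes) and 16 fell (15.1%, against 10.2%). At day 35 against day 14, 5 rose (4.72%, against 7.74%) and 10 fell (9.43%, against 7.12%). Of the 9 basement membrane genes 5 fell and 0 rose. Col4a1 fell by 2.22, Lamb1 by 1.73, Col4a2 by 1.55 and the perlecan gene Hspg2 by 1.42 (limma, adjusted p 0.0115, 0.0106, 0.0292 and 0.0102). Of 16 receptors 3 fell and 0 rose: the apelin receptor Aplnr by 2.09, Cd93 by 1.32 and Nrp1, a co-receptor for vascular endothelial growth factor, by 1.27 (limma, adjusted p 0.0101, 0.0458 and 0.0204). Notch1 and its target Hey1 fell by 1.40 and 1.38 (limma, adjusted p 0.0108 and 0.0104), the 2 calls among 9 Notch and ephrin genes. Of 15 endothelial transcription factors 2 fell and 0 rose, Lmo2 by 1.01 and Mef2c by 0.90 (limma, adjusted p 0.0458 and 0.0368).

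The genes that rose were spread over other roles. Barrier transporters had 2 of 15 up and 0 down: the drug efflux pump Abcg2 rose by 0.97 ± 0.18 (SE, limma, adjusted p 0.0229), and Slco1a4, not above background on either day 10 array, was at least 3.92-fold higher at day 35 (limma, adjusted p 0.0416). The day 35 log2 signals of Slco1a4 were uneven, 7.68 in the knockout and 5.74 in wild type. Among 13 junction and barrier genes, Cav2, Itm2a and Cldn1 rose by 1.45, 1.33 and 1.04 and Cdh13 fell by 1.45 (limma, adjusted p 0.0266, 0.0427, 0.0264 and 0.0142). Angpt1, the Tek ligand, rose by 1.45 ± 0.17 (SE, limma, adjusted p 0.0108), while Tek itself was at -0.13. Angpt1 was dim, with 59.3 and 70.8 raw units at day 10 and 112.4 and 116.2 at day 35, knockout first. The size of its rise is therefore uncertain. Adhesion and surface genes divided evenly, with Ly6c1, Rasgrp3 and Thbd among those that rose and Cd34, Icam2 and Mmrn2 among those that fell. In the same comparison 12 of 14 cell cycle genes fell and 5 of 12 myelin genes rose. Of 12 mural markers 2 fell and 0 rose (Pdgfrb by 0.89 and Notch3 by 0.79), and of 12 meningeal and fibroblast markers 2 fell and 1 rose, where the collagen genes Col1a1 and Col1a2 changed by -2.53 and -2.47 (limma, adjusted p 0.00986 and 0.00942). The part of these cells in the fall of the basement membrane genes was not tested.

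Across the 6 arrays the endothelial genes fell into no single profile. Pearson's r, given here as a description over 6 arrays that share age and slide, was 0.96 for Eng with Cdh5, 0.88 for Tie1 with Eng and 0.95 for Pecam1 with Slc2a1, but -0.89 for Cldn5 with Slc2a1 and -0.87 for Gpr182 with Eng. The Tie1 value includes both day 35 arrays, where that gene was at background. Flt1 lay nearer Pecam1 (0.85) and Slc2a1 (0.83) than the other receptors, with 0.29 to Tek. The mean profile of the 8 genes detected everywhere correlated best, among 5908 genes, with Ncs1 (0.985), Nampt (0.973), Gstm5 (0.940), Ell (0.939) and Slc11a1 (0.936). That mean moved little, between -0.19 and 0.09 log2 around its centre, and Eng, Gpr182, Cdh5 and Cldn5 correlated negatively with it, the last at -0.262. With no normalization between arrays 0 of the 5 named genes stayed among the best matches.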

How the data were processed

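Whole optic nerve RNA of 6 pools was measured on MouseRef-8 BeadChips. Per the file headers, the deposited per-array files hold raw bead intensity on a linear scale from BeadStudio 1.5.0.34, not normalized. The deposited detection score is a fraction from 0 to 1, taken here as 1 minus the p-value of detection. A table that the authors deposited holds the same intensity scaled by 1 factor per array. Its probes carry gene symbols through the platform annotation and were linked to file rows by value, within 0.05 signal units. Of 8934 linked probes, 8047 had 1 symbol (6656 genes). A gene number in the design identifier matched in 97.1% of the 3182 linked probes that carry one.

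Intensity was corrected with normexp from detection p-values (offset 16), quantile normalized and taken to log2 with limma 3.58.1 in R 4.3.3. The 13827 probes detected (p under 0.05) on at least 2 of 6 arrays were tested with day and genotype as terms (2 residual degrees of freedom). Further fits added 1 term for the genotype difference at day 10, or day 14, against the other ages. P-values are two-sided and Benjamini-Hochberg adjusted over all probes, with a threshold of 0.05, and measure only the spread between these pools. The fits were tested on simulated data.

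Groups came from the labels. A gene with several probes is represented by its brightest. The members, the lists and the day 14 term were chosen with earlier results of these data known. Beyond the members, up to 2 genes with the highest and 2 with the lowest value per role group and comparison were eligible for naming. Nrp1, Col4a2, Hspg2, Cldn1, Thbd, Mmrn2, Mef2c, Ucp1, Ccl21b and the other lymphatic, mural and fibroblast markers were named after their values were seen. Alternatives covered normalization, background, offset, the authors' table, the filter, the variance model and each age left out.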

Additional observations from a re-analysis of the deposited data

Results flagged for a closer look

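Results for 2 genes stood out because the difference between the genotypes was beyond 1 log2 unit at 1 age and had the opposite sign at another. Gpr182 was -1.61 log2 (LIF knockout minus wild type) at day 10, against 0.46 and 0.41 at days 14 and 35. Cldn5 was -1.48 log2 at day 35, against 0.76 at day 10 and -0.22 at day 14. For Gpr182 the day 10 difference against the other ages had an adjusted p of 0.886 (limma), in a fit with 1 residual degree of freedom that called 0 of 13827 probes. For Cldn5 the day 35 difference against the other ages was not tested.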

How the results depend on the processing

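The change of Slc2a1 at day 35 against day 10 kept its call in all 10 settings (1.28 to 1.58 log2, limma adjusted p 0.0118 to 0.0483). Against day 14 it missed the threshold with no normalization between arrays (1.18, adjusted p 0.0648), no filter (1.21, 0.0805) and without day 10 (1.21, 0.073), which left 0 of 9 genes. The count of 1 of 9 at day 35 against day 10 became 2 with a median shift, 3 with no background correction, with an offset of 50, and with probes detected on all arrays, 4 with a variance trend, 5 with no normalization and with the authors' table, and 3 without day 14 (Pecam1 and Tie1 added). The split of all calls, 1468 higher and 1407 lower, became 755 and 1903 with no normalization and 526 and 2139 with the authors' table, where the median of all probes shifted by -0.24 and -0.25. With no filter 1906 probes were called. At day 35 against day 14 the 2055 calls became 1064 with no normalization, 1179 with the authors' table, 1079 with no filter and 0 without day 10.

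The median difference stayed within 0.35 to 0.59 at day 10, -0.45 to -0.14 at day 14 (-0.45 with no normalization) and 0.17 to 0.29 at day 35. With no normalization Cdh5 and Eng were at -0.17 and -0.18 at day 14, above the median of all probes there (-0.21). The day 14 term called 9 probes with no normalization, 6 with a median shift, 8 with the authors' table, 3 with probes detected on all arrays and 5 with a variance trend, the day 10 term 3 with no normalization, the difference over ages 1 without day 14 and 1 without day 35, and day 14 against day 10 7 without day 35. The genes most like the mean profile shared 0 of 5 with no normalization, a median shift or the authors' table.

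Uncalled values that changed sign over ages were Tek (-0.29 without day 10 to 0.40 without day 14, and -0.04 without day 35), Tie1 (-0.02 to 0.41, and 0.00), Eng (0.00 without day 10 to 0.18), the Gpr182 probes (-0.60 to 0.43 and -0.30 to 0.46, both highest without day 10), Pecam1 (-0.12 without day 10 to 0.39) and Cldn5 (-0.85 to 0.27 without day 35), and the second Gpr182 probe 0.01 with no background correction, an offset of 50 or the authors' table. Tek at day 14 against day 10 became -0.16, -0.08 and -0.14 with no normalization, a median shift and the authors' table, where the median of all probes was -0.15, -0.08 and -0.17. The day 14 term of Cldn5 became -0.15 with no normalization, where that of all probes was -0.29. Where settings changed a call or a sign, the cause was not tested. Pairing of replicates within an age was not possible, because each group was 1 pool on 1 array. The fits with day as a term already set the genotypes against each other within each age. The slide as a block was not run, since each age lies on 1 slide. With 1 array per group, the number of arrays limits the precision.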
